A study of Mus musculus with 400 samples.

Results

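The genes described here are 10 members of the BMP (bone morphogenetic protein) pathway: the receptors Bmpr1a and Bmpr2, the signal carriers Smad1, Smad5 and Smad4, the inhibitors Smad6 and Smad7, and the target genes Id1, Id2 and Id3. They were chosen by name, and all 10 were among the 33496 genes of the deposited count table. The study measured mRNA in 400 single cells of 1 group, the cells labelled Lgr5_high, taken from the epithelium of the mouse small intestine. Lgr5 marks the stem cells at the base of the crypts. The mice are given as Lgr5 GFP/+ and carried the allele Lgr5::EGFP-IRES-Cre-ERT2, so that a green fluorescent protein and an inducible Cre are made under the control of the Lgr5 locus; this allele is known to be silent in patches of crypts. Crypts of the duodenum and jejunum were dissociated with EDTA and dispase, cells that took up DAPI were left out, and the rest were sorted by flow cytometry and captured one by one on a Fluidigm C1 chip. The protocols also mention tamoxifen, for lineage tracing, and the labels do not tie it to these cells. No age, sex or animal is given for any cell, so the 400 cells count as 1 sample, and no p-value was made from them.

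BMP ligands bind a pair of receptors at the cell surface, and the type 2 receptor (Bmpr2) then switches on the type 1 receptor (Bmpr1a). The active type 1 receptor phosphorylates Smad1 and Smad5, which join Smad4 and enter the nucleus, where Id1, Id2 and Id3 are among the best known targets. In the intestine, BMP signalling is known to be strong towards the villus and to be held low at the crypt base by antagonists from the surrounding stroma.

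Stretches of coding sequence are shown for the members that are near copies of each other in function, since reads of like genes can be confused. The first 3 come from the part of the Id genes that encodes the helix-loop-helix, the fold with which Id proteins bind other transcription factors. Sequences are from GENCODE M21 transcripts, read in the direction of the gene, and capitals mark the bases shared by all genes of the set.
Id1: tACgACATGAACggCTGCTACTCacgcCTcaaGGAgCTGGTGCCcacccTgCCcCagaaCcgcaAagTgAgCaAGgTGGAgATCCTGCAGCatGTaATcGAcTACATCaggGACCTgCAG
Id2: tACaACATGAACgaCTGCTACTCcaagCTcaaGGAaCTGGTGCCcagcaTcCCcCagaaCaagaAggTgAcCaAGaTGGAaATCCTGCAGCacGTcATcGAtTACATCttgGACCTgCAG
Id3: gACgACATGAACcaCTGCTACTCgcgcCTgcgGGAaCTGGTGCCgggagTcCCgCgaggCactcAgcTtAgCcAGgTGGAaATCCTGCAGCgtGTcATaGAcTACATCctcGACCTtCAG
These lie on GRCm38 at chr2:152736518-152736637 on the plus strand (Id1), chr12:25095783-25095902 on the minus strand (Id2) and chr4:136144002-136144121 on the plus strand (Id3), each within 1 exon. Id1 and Id2 were identical at 81.7% of the 120 bases, Id1 and Id3 at 70.8%, and Id2 and Id3 at 71.7%. The next pair encodes part of the DNA-binding end of the receptor-activated Smads.
Smad1: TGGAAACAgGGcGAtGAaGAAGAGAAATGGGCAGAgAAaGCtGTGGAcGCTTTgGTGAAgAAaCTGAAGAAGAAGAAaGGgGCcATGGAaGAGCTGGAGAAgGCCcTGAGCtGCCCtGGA
Smad5: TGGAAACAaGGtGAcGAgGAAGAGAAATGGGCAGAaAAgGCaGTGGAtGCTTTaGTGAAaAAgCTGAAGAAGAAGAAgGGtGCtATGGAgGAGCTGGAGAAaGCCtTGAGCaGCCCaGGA
They lie at chr8:79372007-79372126 on the minus strand (Smad1) and chr13:56723654-56723773 on the plus strand (Smad5), each within 1 exon, and were identical at 84.2% of 120 bases. Differing bases are spread along both sets, as single bases in the Smad pair and partly as short runs in the Id genes. Over the whole coding sequences, the longest run shared by Smad1 and Smad5 was 17 bases, and the longest shared by any 2 of the 10 genes was 22 bases, between Smad4 and Smad7.

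Cells with at least 10000 counts were used, which left 380 cells with 10766 to 70133 counts each (median 32112). The set number in the titles, 1 to 10, with 40 cells in each, was used as a technical split and is called the library set here. Kept cells numbered 36 to 39 per set, and the same 40 barcode numbers occurred in all 10 sets. Each SD below is over the 10 library sets and is a technical spread, not one between mice. Levels are in CPM, the count of a gene scaled by the total count of its cell. Markers of the labelled type were found widely: 11 of 12 stem cell markers in at least 90% of cells (Lgr5 in 97.9%). Of 8 epithelial markers, 7 were found in at least 90% of cells. Epcam, an epithelial adhesion protein, was found in 100% of cells and Cdx2, the lowest, in 33.7%. Paneth cell markers were found widely too, 4 of 7 in at least 90% of cells. Their list summed to 892.3 to 2044 CPM per set, against 2625 to 2835 CPM for the stem cell list.

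Both receptors were found in most cells. Bmpr1a, a type 1 receptor (ENSMUSG00000021796.14, chromosome 14, 34410734 to 34503341), had a count in 80% of the 380 cells (exact 95% binomial interval 75.6 to 83.9), with a mean of 2.88 counts. Its mean level per set was 54.6 CPM at the lowest, 92.7 at the median and 104.5 at the highest, and 87.5 ± 15.4 CPM (SD, n = 10 sets) over all. Bmpr2, the type 2 receptor (ENSMUSG00000067336.6, chromosome 1, 59763400 to 59879014), had a count in 71.1% of cells (66.2 to 75.6) and a mean of 2.08 counts. Its sets ran from 41.9 CPM over a median of 62.7 to 127.1, with 65.6 ± 24.7 CPM over all. Set 10 was alone at 127.1 CPM, the next being 82.4, and without it the mean was 58.9 CPM. These and all other intervals cover counting error only.

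Of the signal carriers, Smad4 and Smad1 were found in most cells and Smad5 in fewer. Smad4, the partner that all receptor-activated Smads share (ENSMUSG00000024515.13, chromosome 18, 73639009 to 73703780), had a count in 85% of cells (81.01 to 88.4), with sets of 81.3 to 169.99 CPM, a median set of 108.9 and 113.8 ± 27.1 CPM over all. Smad1 (ENSMUSG00000031681.14, chromosome 8, 79338395 to 79399518) had a count in 76.1% of cells (71.4 to 80.3), with sets of 50.9 to 102.7 CPM, a median set of 86.9 and 83.4 ± 17.7 CPM over all. Smad5, which carries the same signal as Smad1 (ENSMUSG00000021540.16, chromosome 13, 56703010 to 56742377), had a count in 41.8% of cells (36.8 to 46.98). Its sets ran from 10.7 CPM over a median of 35.5 to 61.5, with 35.03 ± 16.3 CPM over all. The level of Smad1 was thus above that of Smad5 by more than the SD of either over sets, although the highest Smad5 set overlapped the lowest Smad1 set.

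The inhibitory Smads had the lowest levels of the 10. Smad6, which blocks Smad1 and Smad5 signalling above all (ENSMUSG00000036867.7, chromosome 9, 63953076 to 64022059), had a count in 28.7% of cells (24.2 to 33.5), with sets of 3.65 to 25.5 CPM, a median set of 16.9 and 16.8 ± 6.38 CPM over all. Smad7, which blocks both BMP and TGF-beta receptors (ENSMUSG00000025880.11, chromosome 18, 75367529 to 75395935), had a count in 31.3% of cells (26.7 to 36.2), with sets of 11.2 to 35.2 CPM, a median set of 16.7 and 19.05 ± 6.91 CPM over all. Most cells with either gene had a single count, 62.4% of the cells with Smad6 and 57.1% of those with Smad7. No cell had 10 counts or more of either.

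The Id genes were found in most cells, Id3 in nearly all. Id3 (ENSMUSG00000007872.3, chromosome 4, 136143497 to 136145755) had a count in 93.9% of cells (91.1 to 96.1), and a mean of 5.43 counts. Its sets ran from 108.9 CPM over a median of 169.6 to 217.5, with 170.4 ± 31.99 CPM over all. Id1 (ENSMUSG00000042745.9, chromosome 2, 152736251 to 152737410) had a count in 83.2% of cells (79.01 to 86.8), with sets of 70.6 to 152.6 CPM, a median set of 99.6 and 105.2 ± 22.4 CPM over all. Id2 (ENSMUSG00000020644.8, chromosome 12, 25093799 to 25097140) had a count in 80.3% of cells (75.9 to 84.2), with sets of 73.7 to 133.1 CPM, a median set of 103.9 and 103.5 ± 23 CPM over all. Cells with 10 counts or more made up 16.8% for Id3, 7.63% for Id1 and 6.32% for Id2.

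**Figure D1:**
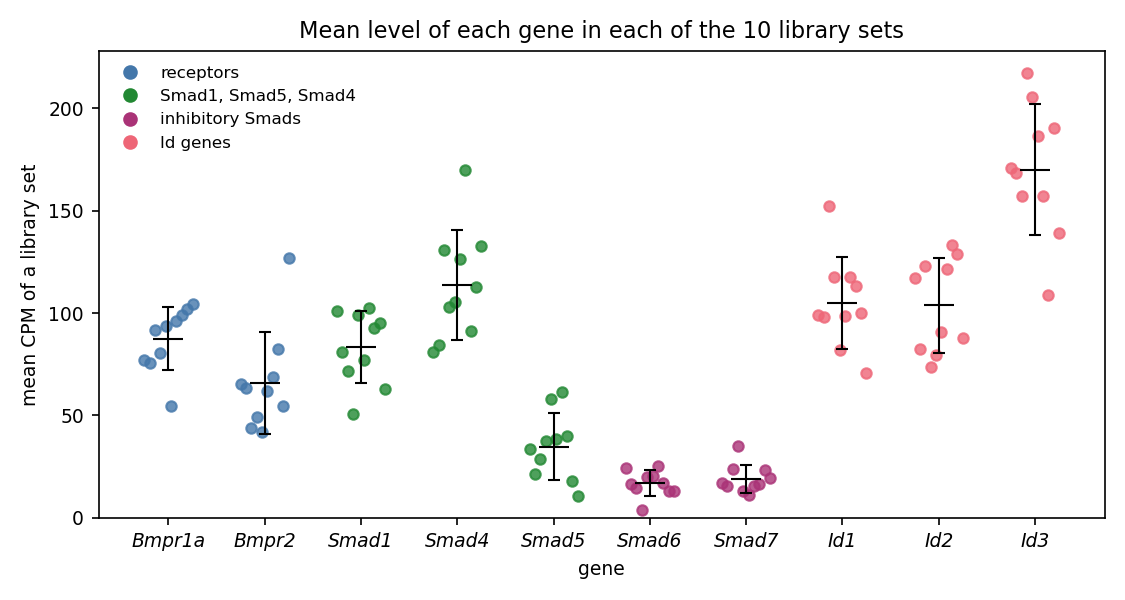
Mean level of each of the 10 genes (x axis) in CPM (y axis); each point is 1 of the 10 library sets, and the black bars are the mean and SD over sets. Id3 is highest with sets of 108.9 to 217.5 CPM, the inhibitory Smads are lowest, and 1 Bmpr2 set stands alone at 127.1 CPM.

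**Figure D2:**
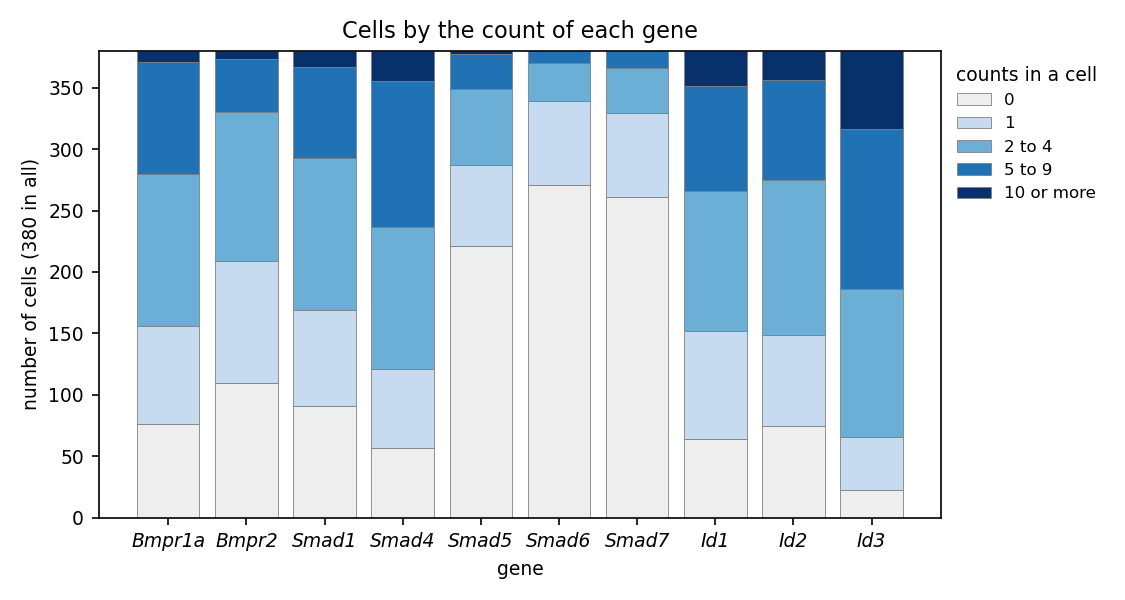
Number of the 380 cells (y axis) by the count of each gene (x axis), from 0 counts (pale) to 10 or more (dark). Id3 has 23 cells at 0 and 64 cells with 10 counts or more, whereas Smad6 and Smad7 have 71.3% and 68.7% of cells at 0 and none with 10 or more.

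By CPM the order was Id3, Smad4, Id1, Id2, Bmpr1a, Smad1, Bmpr2, Smad5, Smad7 and Smad6. Of the 9 neighbouring pairs in this order, only Id3 and Smad4 differed by more than the SD of their difference over sets (56.4 ± 43.9 CPM, SD, higher in 9 of 10 sets). Per kb of exon, the order of levels changed to Id3 (95.1 CPM per kb), Id1 (90.7), Id2 (42.5), Smad4 (30.7), Bmpr1a (13.8), Smad1 (13.3), Smad6 (5.25), Smad5 (4.72), Smad7 (4.21) and Bmpr2 (3.65). On this scale, 4 neighbouring pairs differed beyond their spread, each in 10 of 10 sets: Id1 over Id2, Id2 over Smad4, Smad4 over Bmpr1a and Smad1 over Smad6. Bmpr2 falls from the seventh place to the last because its annotated exons cover 17.98 kb. Which scale applies depends on whether reads cover whole transcripts or their ends, and the counting method is not given in the sources used here.

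Counts in this table also rose with the span of a gene, from its first to its last annotated base, which bears on how the receptors and Smads are read. Among protein-coding genes with a span under 5 kb, the median gene was found in 4.47% of cells, against 40.8% at 30 to 100 kb and 74.6% at 300 kb or more. Very long genes known from neurons or muscle were found in most of these sorted cells, Cntnap2 (a neuronal adhesion protein) in 98.7% and Dmd (dystrophin) in 96.8%. A share of cells is thus no sign of expression without the genes of like span beside it. Such genes were the protein-coding ones up to 25% longer than a member, or shorter by the same factor.

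Read in this way, Smad4, Smad1 and Bmpr1a stood above most genes of like span, and the inhibitory Smads did not. Smad4 (64.8 kb) had a higher mean count than 89.9% of 1694 genes of like span, Smad1 (61.1 kb) than 84.2% and Bmpr1a (92.6 kb) than 82.9%. Bmpr2 (115.6 kb) lay above 67.96% of such genes and Smad5 (39.4 kb) above 61.9%. Smad7 (28.4 kb) lay at 49.7%, close to the middle, and Smad6 (68.98 kb) at 33.7%. The mean count of Smad6, 0.54, was below the median of genes of its span, 1.02. The Id genes are short, and Id3 (2.26 kb) lay above 89.4%, Id1 (1.16 kb) above 86.96% and Id2 (3.34 kb) above 86.7% of genes of like span. The median short gene had almost no counts: for genes of like span to Id1 the median mean count was 0.04, against 3.45 for Id1.

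**Figure D3:**
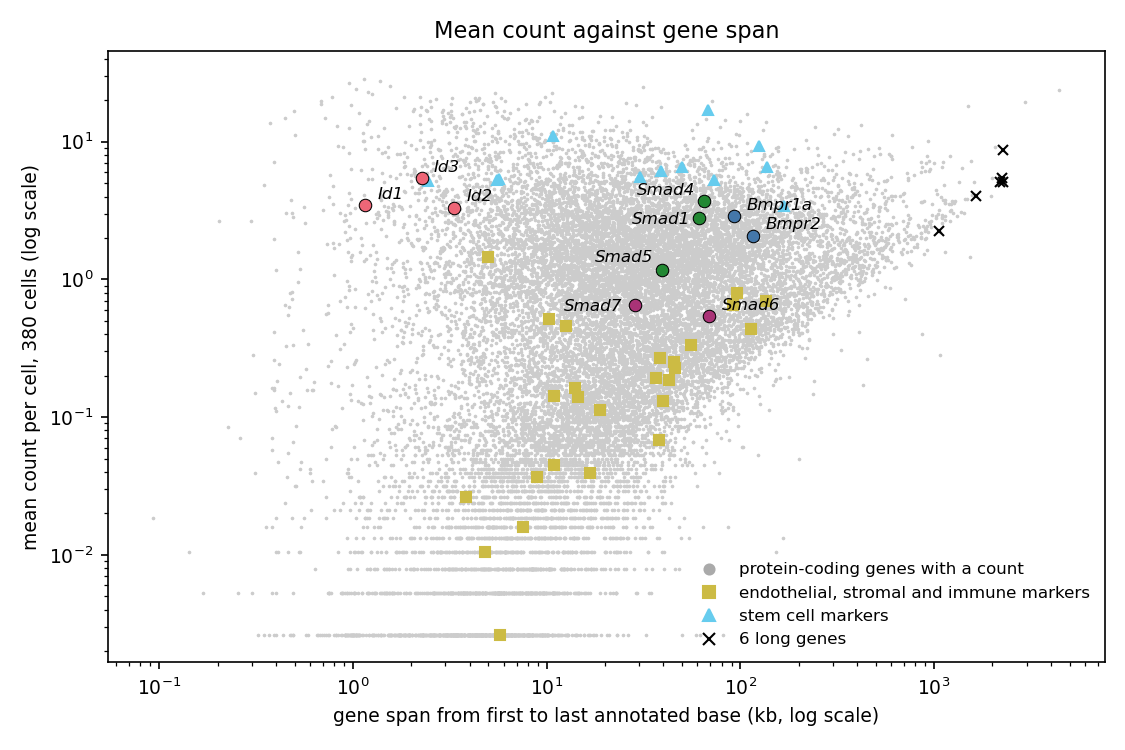
Mean count per cell over 380 cells (y axis, log scale) against gene span in kb (x axis, log scale); grey dots are protein-coding genes with a count, circles the 10 genes, squares markers of endothelial, stromal and immune cells, triangles stem cell markers and crosses 6 long genes. Smad6, at 0.54 counts, lies among the squares, while the 3 Id genes lie at 3.32 to 5.43 counts far above most genes of their span.

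BMP receptors, inhibitory Smads and Id genes are also known to be strong in endothelial and stromal cells, so markers of the cells a sort could carry along are given. Of 8 endothelial markers, 7 were found in at least 10% of cells, with a median of 20.8% and Pecam1 highest at 44.5%; the list summed to 79.3 to 166.2 CPM per set. Of 9 stromal markers, 4 were found in at least 10%, with a median of 8.16% and a sum of 20.4 to 44.8 CPM per set. Of 9 immune markers, 5 were found in at least 10%, with a median of 10.3% and a sum of 43.7 to 142.2 CPM per set. None of these markers was at 0, the lowest being Cd8a, a T cell co-receptor, at 0.263% of cells. Per 100 kb of span, the median marker had 0.655 counts in the endothelial, 0.414 in the stromal and 0.594 in the immune list, and Smad6 had 0.782. The other 9 genes had 1.80 (Bmpr2) to 297.4 (Id1) counts per 100 kb, and the stem cell markers a median of 16.9. Single markers lay within the range of these 9 genes: Esam (endothelial) had 5.01, Cd52 3.60 and Lyz2 28.9 (both immune). Esam was thus above Bmpr2, Smad7, Smad5, Bmpr1a and Smad1. The stromal list reached 0.962 at most.

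In cells with endothelial counts the Id genes, Smad1, Smad4 and Smad5 had lower means, and the receptors, Smad6 and Smad7 higher ones. For this, cells were drawn down at random to 19169 counts, the thinned depth, which 38 of the kept cells did not reach. In the 45.9% of cells with at least 2 endothelial counts, Id3 had 148.3 CPM, against 184.9 in the 28.9% of cells with none. Id1 had 98.9 against 111.9 CPM, and Id2 83.1 against 126.2. Of the 10 genes, 1 differed by over 1.5-fold, Id2, which was lower. For the endothelial, stromal and immune comparisons, the share of all genes past this fold is not given. The counts of members past it thus have no background. Smad6 was found in 25.5% of the cells with and 14.1% of the cells without endothelial counts, Bmpr1a in 77.1% and 66.7%, and Bmpr2 in 64.3% and 54.5%. Smad7 was found in 21.7% and 16.2%, Smad1 in 65.6% and 64.6%, Smad4 in 75.8% and 85.9%, and Smad5 in 24.8% and 39.4%. In mean CPM the log2 ratios were 0.14 (Bmpr1a), 0.17 (Bmpr2), 0.24 (Smad6) and 0.16 (Smad7). They were −0.43 for Smad1, −0.14 for Smad4 and −0.30 for Smad5. The share of counts from genes of 300 kb or more was 6.64% in the cells with and 3.85% in the cells without, and its part in these differences was not tested. In the 13.5% of cells with at least 2 stromal counts, Smad6 had 21.2 CPM, against 14.3 in the 59.1% of cells with none (log2 0.54), and was found in 28.3% against 16.8%. Smad1 (55.5 against 90.7 CPM) and Id3 (116.03 against 176.1 CPM) were lower by over 1.5-fold in the cells with stromal counts, whose long-gene share was 8.16% against 4.43%. With at least 2 immune counts, none of the 10 genes differed by over 1.5-fold.

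The parts of the pathway were found together in a cell about as often as their separate shares give. At the thinned depth, both receptors were found in 42.98% of cells (exact 95% interval 37.7 to 48.4), and the product of their shares was 43.4%. Both receptors with Smad1 or Smad5 and with Smad4 were found in 27.2% (22.5 to 32.2), where the product was 26.2%, and in 45% of the 380 cells at full depth. All 3 Id genes were found in 45.3% of cells at the thinned depth (39.96 to 50.8), with a product of 42.8%, 2 of them in 38.9%, 1 in 13.7% and none in 2.05%. At full depth 0 of 380 cells lacked all 3 Id genes, which allows a share of up to 0.789% by a floor of 3 cells and up to 0.966% by the exact 95% interval, and 63.4% had all 3. A cell had counts of 6 of the 10 genes at the median, with 2 at the lowest and 9 at the highest.

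A cell with counts of all the parts did not stand out in its targets. Id1 had 104.8 CPM in the 93 cells with both receptors, Smad1 or Smad5, and Smad4, and 107.6 CPM in the rest. Id2 had 107.7 against 96.3 CPM, and Id3 149.7 against 175.5 CPM. With a mean of 0.70 (Smad5) to 2.18 (Smad4) counts per cell at the thinned depth, a part that is not found may still be expressed.

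Correlations between the 10 genes over cells were weak. At the thinned depth, 41 of the 45 pairs had a Spearman rho under 0.1 in size, and the median rho was 0.03. Id1 with Id3 had the highest rho, 0.22, or 0.21 with the share of counts from long genes held fixed, and Bmpr2 with Id3 the lowest, −0.14. These values describe sparse counts of cells with the same group label and no animal given, and carry no test. Among all 17216 genes compared with Id1, Id3 had the second highest rho, after Adipor1, an adiponectin receptor, at 0.25. The receptor Bmpr1a had −0.03 with Id1, −0.08 with Id2 and 0.07 with Id3.

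**Figure D4:**
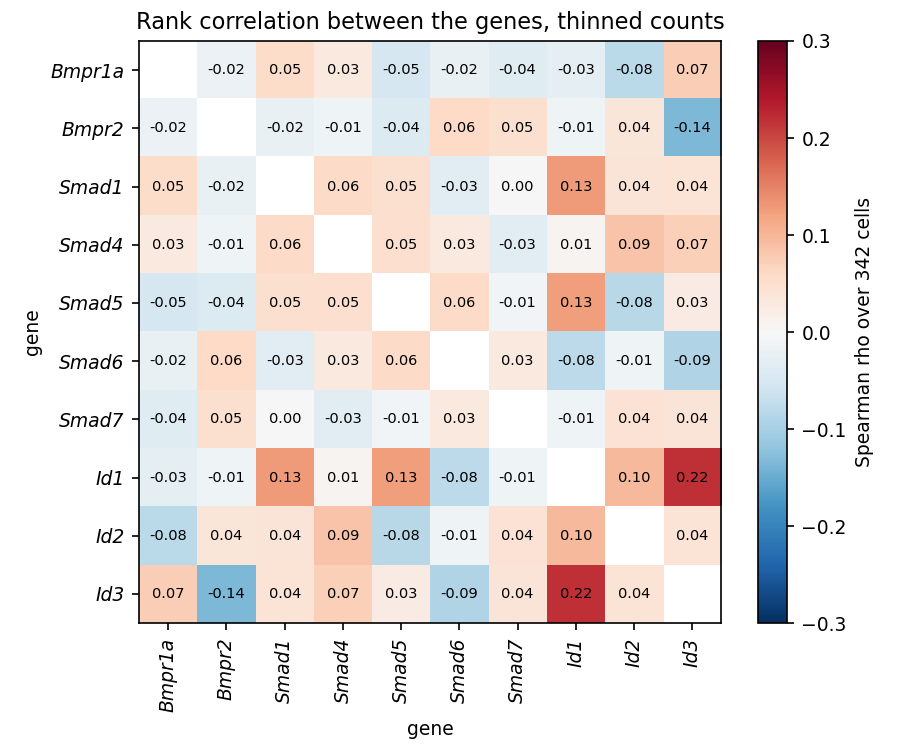
Spearman rho of thinned counts between each pair of the 10 genes over the cells that reached the thinned depth (rows and columns are genes, color is rho from −0.3 to 0.3). Id1 with Id3 stands out at 0.22, Bmpr2 with Id3 is lowest at −0.14, and most squares are near 0.

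For the other 6 members found in at least 50% of cells at the thinned depth, the most similar gene had a rho of 0.22 to 0.30. For Id3 they were led by Gm5292, a processed pseudogene of 0.58 kb, at 0.30, and at the low end by Shank2, a scaffold gene of 423 kb, at −0.25. For Id2 the highest was Dusp5, a phosphatase that acts on ERK, at 0.25. For Bmpr1a it was Rnmt at 0.23, for Bmpr2 Gm43401 at 0.24, for Smad1 Slc30a9 at 0.22 and for Smad4 Spast at 0.26. The cell to cell spread, as variance over mean of thinned counts relative to genes of like level, was highest for Id3 at 1.30 (above 87.8% of 19605 genes). It was 1.23 for Id2, 1.22 for Smad5 and 1.13 for Id1, and 0.92 to 1.07 for the other 6 genes.

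To see where in the population the genes were high, cells were ranked within each library set and the highest tertile (110 cells) was set against the lowest tertile (110 cells). A gene was counted where its mean CPM differed by over 1.5-fold, with 1 CPM added. Each ratio is over all cells of the tertiles, and its SD is that of the ratios within single sets, whose mean can differ from it. By Lgr5, 1 of 10 genes passed this fold, Smad6, against 7.84% of 17216 genes higher and 4.2% lower. Smad6 had 24.4 CPM in the cells with most and 15.8 in the cells with least Lgr5, a log2 ratio of 0.60. The ratios within sets had a mean of 0.29, under the fold, and an SD of 1.51. Its sets overlapped widely, at 2.12 to 49.3 CPM in the high and 3.85 to 33.8 CPM in the low tertile, and its ratio was 0.38 to 0.82 with 1 set left out, under the fold without set 1, 5, 6, 7 or 10. The stromal markers summed to 42.3 CPM in the high and 26.1 in the low tertile and the endothelial ones to 110.5 and 97.2 CPM, and their part was not tested. Id2 (90.4 against 113.9 CPM, log2 −0.33) and Id3 (147.8 against 178.99 CPM, log2 −0.27) were lower where Lgr5 was high in 7 of 10 sets each, within their spread (SD 0.71 and 0.51). Immediate early genes, described below, summed to 2048 CPM in the high and 2423 CPM in the low Lgr5 tertile. Genes of 300 kb or more gave 5.50% and 4.89% of counts. The part of both in the lower Id2 and Id3 levels was not tested. The other 7 genes had log2 ratios of −0.12 to 0.20.

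By cell cycle score (genes of S, G2 and M phase), none of the 10 genes passed 1.5-fold, against 8.93% of 17167 genes higher and 30.6% lower. Id2 came nearest, with 113.9 CPM in the high and 78.6 CPM in the low tertile (log2 0.53, SD 1.09, higher in 8 of 10 sets). Id3 had 180.7 against 148.99 CPM (log2 0.28, SD 0.38, 8 of 10 sets). Of genes with a span under 5 kb, like the Id genes, 26.8% were higher past the fold. The long-gene share was 4.19% of counts in the high and 6.85% in the low tertile, and its part here was not tested.

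By the scores for absorptive and for secretory genes, none of the 10 passed 1.5-fold. The background was 6.28% of genes higher and 4.05% lower by the absorptive, and 15.9% higher and 4.38% lower by the secretory score. The 10 log2 ratios ran from −0.25 (Bmpr1a) to 0.23 (Id1) by the absorptive score, and from −0.34 (Smad7) to 0.43 (Smad5) by the secretory score. All were within their SD over sets.

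**Figure D5:**
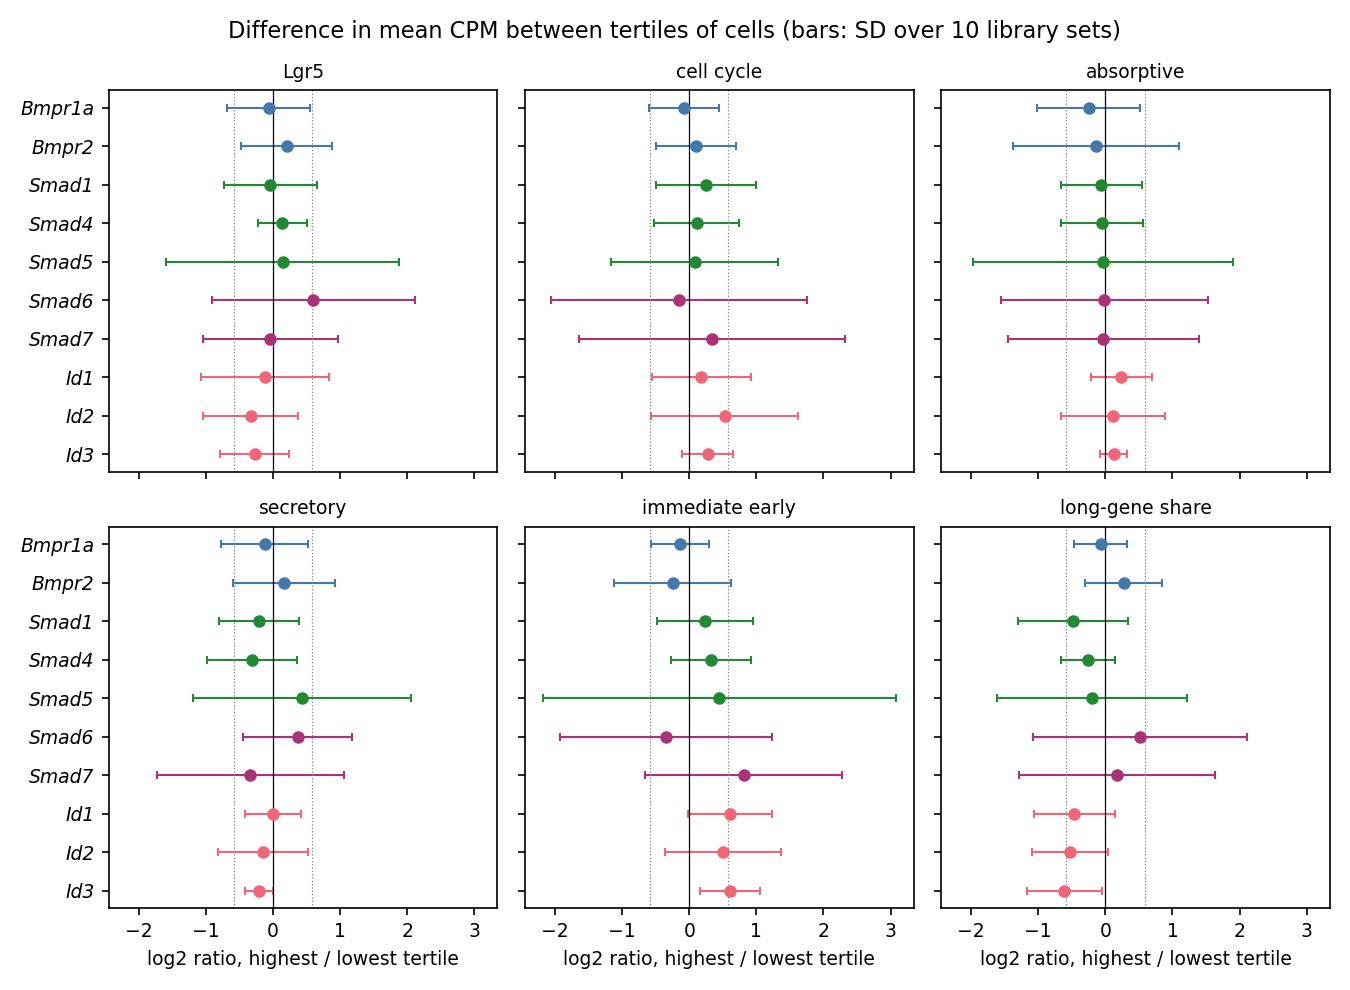
Log2 ratio of mean CPM, highest over lowest tertile of cells (x axis), for each of the 10 genes (y axis) in 6 rankings (panels); points are the ratio over 110 and 110 cells, bars the SD over 10 library sets, and dotted lines mark 1.5-fold. By immediate early score Id1, Id3 and Smad7 lie beyond the dotted line, by Lgr5 Smad6 does, and by long-gene share Id3 does on the other side, but most bars cross 0.

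The ranking with the most members past the fold was that by immediate early genes. These genes, such as Fos and Jun, are switched on within minutes by growth signals and by stress, tissue dissociation included. Id genes are also known as immediate early genes, though none of them is in this score, and the part of this was not tested. Id1, Id3 and Smad7, 3 of 10 genes, were higher past 1.5-fold, against 4.5% of 17203 genes higher and 14% lower, and 9.73% higher among genes with a span under 5 kb. Id3 had a median set of 201.1 CPM in the high tertile, with every set above 150 CPM, and of 132.5 CPM in the low tertile, with sets of 47.7 to 180.6 CPM. The mean was 196.1 against 128.4 CPM, a log2 ratio of 0.61 with an SD of 0.44, and Id3 was higher in 10 of 10 sets although the sets of the tertiles overlapped.

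Id1 had set means of 44.5 to 205.4 CPM in the high (median 119.98) and 54.8 to 134.7 CPM in the low tertile (median 72.9), with means of 121.8 and 79.9 CPM. Its log2 ratio was 0.60, with an SD of 0.63, and it was higher in 8 of 10 sets. Smad7 had set means of 13.2 to 45.03 CPM (median 27.6) in the high and 1.98 to 33.7 CPM (median 10.8) in the low tertile, with means of 26.2 and 14.5 CPM. Its log2 ratio of 0.81 had an SD of 1.47, rested on 0.99 and 0.54 counts per cell, and was above 0 in 8 of 10 sets. Id2, at 118.6 against 83.3 CPM, was just inside the fold (log2 0.50, SD 0.87, 7 of 10 sets). The signal carriers were above 0 but within their spread, Smad5 at 0.45 (SD 2.63), Smad4 at 0.32 (SD 0.60) and Smad1 at 0.24 (SD 0.72). The receptors had log2 ratios of −0.14 (Bmpr1a) and −0.25 (Bmpr2), and Smad6 −0.34.

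Of Id1, Id2, Id3 and Smad7, only Id3 differed by more than its SD over sets. Id1 and Id3 lay close to the fold, at log2 0.60 and 0.61, and the count of 3 fell to 0 with cells ranked over all sets together, with 2 groups in place of tertiles or with a pseudocount of 10 CPM. The log2 ratios stayed above 0 for all 4 in each of 21 alternatives (Id1 0.42 to 0.70, Id2 0.26 to 0.66, Id3 0.32 to 0.75, Smad7 0.48 to 1.18). The long-gene share was 4.81% in the high and 5.88% in the low tertile. Ranked separately among cells with a high and a low share, the log2 ratios were 0.55 for Id1, 0.60 for Id2, 0.46 for Id3 and 0.70 for Smad7. Lgr5 had 179.2 CPM in the high and 242.5 CPM in the low tertile. The stromal markers summed to 25.03 and 49.5 CPM and the endothelial ones to 87.98 and 125.9 CPM, lower where Id1, Id3 and Smad7 were higher. The part of Lgr5 and of these markers was not tested.

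When cells were ranked by Id1 itself, Id3 was the gene of the other 9 that passed 1.5-fold, against 4.00% of 17216 genes higher and 13.5% lower. Id3 had set means of 114.5 to 285.2 CPM in the high (median 208.1) and 69.6 to 181.9 CPM in the low tertile (median 134.9). The means were 212.02 and 133.2 CPM, a log2 ratio of 0.67 with an SD of 0.38, higher in 9 of 10 sets. Smad1 had 102.8 against 71.5 CPM (log2 0.52, SD 0.64, 7 of 10 sets), Id2 116.1 against 84.7 CPM (log2 0.45, SD 0.87, 7 of 10 sets) and Smad6 12.7 against 17.8 CPM (log2 −0.45, SD 2.27). The receptors Bmpr1a (log2 0.11) and Bmpr2 (0.07) and Smad4 (−0.03) were near 0. The immediate early genes summed to 2335 CPM in the high and 2057 CPM in the low tertile, the endothelial markers to 91.3 and 115.99 CPM and the stromal ones to 28.5 and 37.5 CPM, and their part was not tested.

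Mex3a, an RNA-binding protein gene named in the series title, had a count in 32 cells at the thinned depth. Of the 10 genes, 1 passed 1.5-fold between these and the other 310 cells, against 5.33% of 17216 genes higher and 15.0% lower. Smad6 had 3 counts in the 32 cells with Mex3a, or 0.09 per cell, and 0.62 counts per cell in the cells without, a log2 ratio of summed counts of −2.66 (exact interval of the counts −4.95 to −1.09). On the scale of mean CPM the log2 ratio was −2.35, and with 10 other random draws of the thinning, which change the cells called, it was −1.98 to −0.22. The size of this difference thus rests on which few cells are drawn. Id1 had 149.3 CPM in cells with and 102.5 in cells without Mex3a (log2 0.54, SD 0.89 over 8 sets), and 0.15 to 0.65 with other draws. Id3 had 214.6 against 163.8 CPM (log2 0.39, SD 0.58), and 0.17 to 0.48 with other draws. The stromal markers summed to 32.6 and 34.8 CPM and the endothelial ones to 93.995 and 107.8 CPM.

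Cells also differed in the share of counts from genes of 300 kb or more, 8.04% in the highest and 3.51% in the lowest tertile. The Id genes were lower where it was high: Id3 had 130.6 against 199.9 CPM (log2 −0.61, SD 0.56), Id2 79.8 against 114.9 CPM (−0.52, SD 0.57) and Id1 89.1 against 123.1 CPM (−0.46, SD 0.60). Id2 and Id3 were each lower in 9 of 10 sets. Of the 10 genes 1 passed the fold, Id3, against 18.7% of 17217 genes lower and 36.4% higher. Among genes with a span under 5 kb, 56.6% were lower, with a median log2 ratio of −0.67, so the Id genes were no further down than the short genes at large. Bmpr2, the gene of the longest span, had a log2 ratio of 0.27, and Bmpr1a −0.07. Smad1 (−0.48, SD 0.82), Smad4 (−0.25, SD 0.40) and Smad5 (−0.20, SD 1.41) were lower where the share was high. Smad6 (0.51, SD 1.59) and Smad7 (0.17, SD 1.46) were higher. The median over protein-coding genes in the size range of the receptors and Smads was 0.31, so a lower level was not limited to the short Id genes. The endothelial markers summed to 202.5 CPM in the high and 59.2 in the low tertile, and the stromal ones to 73.3 and 12.3 CPM. This ranking was added after the data were seen.

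Of the other BMP pathway genes, 82 were in the table, and 58 of them were found in at least 10% of cells. Their shares of cells are given with how their mean count ranks among genes of like span, as for the members. None of the 13 ligands was found in at least 50% of cells. The highest were Bmp6 with 43.4%, Bmp3 with 38.9% and Bmp7 with 37.6%, while Bmp4 and Bmp2, ligands known from the stroma and the villus, were found in 11.1% and 8.95%, and 3 of the 13 lay above the median of genes of like span. Of 14 other receptors and co-receptors, 7 were found in at least 50% of cells, led by the co-receptor Rgmb (83.2%, 118.7 ± 22.8 CPM), the TGF-beta receptor Tgfbr1 (64.5%) and the activin receptor Acvr2a (61.3%). Of these 7, 4 lay above the median of like span, Rgmb above 91.3% of such genes, while Bmpr1b, a second type 1 BMP receptor of 332.3 kb found in 51.6% of cells, lay above 23.3%. Smad2 and Smad3, which carry TGF-beta and activin signals, were found in 66.6% and 58.2%, and Smad9, the third Smad of the BMP branch, in 9.21%; they lay above 70.5%, 56.9% and 8.65% of genes of like span. Of 15 antagonists, 2 were found in at least 50%: Twsg1, a BMP-binding protein, in 63.7% and Fstl1 in 50%, followed by Bmper in 43.2%. Twsg1 lay above 79.7% and Fstl1 above 53.7% of genes of like span, and Bmper, which spans 262.1 kb, above 16.1%.

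Of 18 modulators of Smads, 14 were found in at least 50% of cells, led by Fkbp1a, which holds type 1 receptors inactive (99.7%), and by Nedd4l (94.2%) and Stub1 (92.6%), which mark proteins for degradation. All 14 lay above the median of like span. Of 14 further BMP targets, 5 were found in at least 50% of cells, and 4 of these 5 lay above the median of like span. Hes1, also a Notch target, was found in 100%, Gata4 in 88.7% and Junb in 87.1%, whereas Id4, the fourth Id gene, was found in 2.11%. Of 7 partners that Id proteins are known to bind or oppose, 4 were found in at least 50% of cells, all above the median of like span. Tcf12 was found in 95.3% of cells (above 93.95% of genes of like span), Ascl2, a stem cell transcription factor, in 91.1% (above 89.1%), and Tcf4 in 90% (above 82.4%).

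The 58 genes were counted by the same fold in the rankings where a member passed it. By immediate early score, 4 were higher and 7 lower, the background being that given above. Tob1, which restrains Smad signals (62.2 against 31.4 CPM, log2 0.97, SD 1.16), Skil (0.80) and Dand5 (0.79) were higher. Junb was higher by 1.07, but it is itself in the immediate early score. With Junb set aside, the counts of higher and of lower genes were near the background. Smurf1, a ligase that targets Smad1 and Smad5, was lower (22.4 against 45.04 CPM, log2 −0.98, SD 1.28, in 9 of 10 sets), as were Chrdl1 (−0.86), Bmpr1b (−0.73), Zfp423 (−0.71), Runx2 (−0.66), Bmper (−0.66) and Acvr2b (−0.63).

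By Id1, 2 of the 58 were higher and 8 lower, against 4% of 17216 genes higher and 13.5% lower. The higher ones were Acvr1b, an activin receptor (44.1 against 22.9 CPM, log2 0.92, SD 0.70, in 9 of 10 sets), and Dand5 (0.90). Lower ones included Acvr1c (−0.97), Bmp5 (−0.88), Bmpr1b (−0.80), Bmper (−0.71), Bmp8a (−0.65), Zfp423 (−0.62) and Smurf1 (−0.61). By Lgr5, 4 of the 58 were higher and 2 lower, against 7.84% of 17216 genes higher and 4.2% lower. Bmp3 (34.98 against 17.4 CPM, log2 0.97, SD 1.11, in 9 of 10 sets), Skil (0.68), Zfp423 (0.63) and Eng (0.59) were higher, and Dand5 (−1.08) and Twsg1 (−0.60) lower. In cells with Mex3a, 3 of the 58 were higher and 3 lower, against 5.33% of 17216 genes higher and 15% lower. Acvr2b (0.83), Smurf1 (0.73) and Gdf15 (0.60) were higher, and Acvr1c (−0.99), Rgma (−0.90) and Rnf111 (−0.85) lower. The counts of pathway genes by Id1 and by Lgr5 were near the shares over all genes in both directions. By Mex3a the count was near that share for higher genes and below it for lower ones. Of the ratios named so far, those of Junb and Runx2 by immediate early score, Acvr1b by Id1 and Rnf111 by Mex3a were larger than their SD over sets.

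By long-gene share, 21 of the 58 were higher and 10 lower, against 36.4% of all genes higher and 18.7% lower. The counts were thus near the background in both directions. The higher genes had a median span of 111.2 kb and the lower ones of 7.13 kb. Of the ligands, Bmp6 (50.1 against 7.07 CPM, log2 2.66, SD 1.17, in 10 of 10 sets), Bmp5 (2.05), Bmp4 (1.88), Bmp8a (1.16), Bmp8b (0.92) and Bmp3 (0.68) were higher. Of the receptors and co-receptors, Rgma (2.91), Tgfbr3 (2.66), Bmpr1b (2.57), Eng (1.91), Acvr1 (1.09) and Acvr1c (0.97) were. Bmper (2.62), Runx2 (2.48), Zfp423 (2.20), Chrdl1 (2.19), Fstl1 (1.63), Nedd4l (0.89), Tcf4 (0.80) and Smad3 (0.66) were also among the higher genes. The lower genes were Ascl2 (104.9 against 197.4 CPM, log2 −0.91, SD 0.63, lower in 10 of 10 sets), Atoh8 (−1.37), Bambi (−1.36), Gdf15 (−0.95), Ppm1a (−0.83), Tob1 (−0.78), Tcf3 (−0.76), Ctdsp1 (−0.70), Junb (−0.64) and Bmp7 (−0.62).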

How the data were processed

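The deposited table holds a whole number per gene and cell, used here as a read count with no normalization by the authors stated. Per the submitters' processing notes, the build named is GRCm38.p4. For the aligner, the counting tool and any use of strand or molecular identifiers, the method is not given in the sources used here. No count exceeds 36, and whether this compresses ratios of abundant genes was not tested. Symbols, spans and exon lengths came from GENCODE M21, which matched 33219 of 33496 identifiers and all 10 members, 7 with the same version. Bmpr1a overlaps an exon of the antisense gene Gm17110 (found in 0.263% of cells) and Smad5 an exon of the small RNA gene Gm27301, so their counts could include reads of these.

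CPM was computed from all counts of a cell. Shares, scores and pairs used counts thinned to 19169 per cell, the 10th percentile, which left 342 cells. Scores were mean log2(thinned CPM + 1) over a list. Backgrounds used genes found in at least 10% of cells. Doublets were not removed. No test between groups of cells was made, since the labels give 1 sample. Dixon's criterion, used below, compares library sets only. The other pathway genes were named by rule: the 3 found in most cells per group, and those past 1.5-fold where a member was; Smad9, Bmp2, Bmp4 and Id4 were named besides, and 1 gene is not reported here. For pairs with other genes, the rule took the 5 highest and 3 lowest correlations, of which the text gives the extremes. The members and lists were chosen with earlier results of these data known. The scripts, checked on simulated data, used Python 3.11.15, numpy 2.4.6, pandas 2.3.3, scipy 1.17.1 and matplotlib 3.10.9.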

Additional observations from a re-analysis of the deposited data

Results flagged for a closer look

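Library sets were compared for the mean CPM and the share of cells of each of the 10 genes, 20 groups of 10 values. In 3 of them, 1 set lay far from the others by Dixon's criterion, where chance alone gives about 1 in 20. The mean and the share of a gene come from the same cells, so the 20 groups are not independent. Bmpr2 had 127.1 CPM in set 10, against 82.4 CPM in the next highest set. Smad7 had 35.2 CPM in set 4, against 23.7 CPM in the next. Id3 was found in 78.4% of cells in set 8, against 91.7% in the next lowest. The mean of Bmpr2 was 58.9 CPM without set 10, that of Smad7 17.2 CPM without set 4 and that of Id3 177.02 CPM without set 8.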

How the results depend on the processing

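Each count here is the number of the 10 genes past 1.5-fold (of 9 by Id1). By immediate early score it was 3, and became 0 with a pseudocount of 10 CPM, with cells ranked over all sets together and with 2 groups in place of tertiles, and 1 with thinned counts and in the lowest of 10 other draws of the thinning. By Lgr5 it was 1, and became 0 with that pseudocount, with scaling by genes with a mean count under 5, without the 5% of cells with the most genes, with ranks over all sets, with 2 groups and with ranks taken within cells of high and of low long-gene share. By Id1 it was 1, and became 2 with ranks over all sets and 0 with 2 groups and within cells of like long-gene share. By cell cycle it was 0, and became 2 with thinned counts, 1 with the other scaling and 1 in the highest of the other draws. By the absorptive score it was 0, and 1 in the highest of the other draws; by the secretory score it was 0, and 1 in the highest of the other draws and within cells of like long-gene share. By Mex3a it was 1, and became 2 with thinned counts and 0 to 2 over the other draws. By long-gene share it was 1, and became 0 with the larger pseudocount, without the 5% of cells with the most genes and with 2 groups, 2 with thinned counts and 4 with the other scaling. With each library set left out in turn, the count was 2 to 4 by immediate early score and 0 to 1 by Lgr5, where it was 0 without set 1, 5, 6, 7 or 10. It was 1 to 2 by Id1 (2 without set 1, 2, 6, 7 or 9), 0 to 2 by cell cycle (1 without set 8, 2 without set 9), 0 by the absorptive score and 0 to 1 by the secretory score (1 without set 3 or 8). It was 1 to 2 by Mex3a (2 without set 3, 5, 9 or 10) and 0 to 3 by long-gene share (0 without set 2, 4 or 6, 2 without set 5 or 7, and 3 without set 8 or 9). The causes were not tested.

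With 2 counts or more as the mark of a found gene, Bmpr2 fell from 71.1% to 45% of cells, and 6 in place of 7 genes were found in at least 50%. Draws of the thinning apply to no ranking by Lgr5, Id1 or long-gene share, which use full depth. Lifting the filter of 10% of cells leaves the values of the 10 genes as they are, since all pass it. The immediate early score without Junb, which gave 2 genes past the fold, and the ranks within cells of like long-gene share were chosen after seeing the data. No paired analysis was possible because there is only 1 group of samples, so that no samples of 2 groups share a number; cells of the high and low tertile were compared set by set, as given above. Depth limits the inhibitory Smads most, at 0.54 and 0.65 counts per cell.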
